A study of Mus musculus with 11 samples.

Results

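Immune checkpoint ligands and receptors were followed in mouse neuroblastomas after CBL0137, panobinostat or both drugs. The 10 genes were chosen by symbol for their role, not by a threshold on their values, but with earlier results of these data known. All 10 were found among the 24411 genes of the expression table. They encode 7 ligands (Cd274, Pdcd1lg2, Cd80, Cd86, Lgals9, Cd47 and Pvr), 2 receptors (Lag3 and Havcr2), and VISTA, whose gene Vsir is listed under the older name 4632428N05Rik. The tumours arose spontaneously in mice homozygous for Th-MYCN, a transgene that places MYCN under the tyrosine hydroxylase promoter, and all groups, the vehicle group included, carried it. Mice with tumours of about 5 mm received a single treatment, and the tumours were taken 16 h later. The groups were vehicle (n = 3), CBL0137 at 40 mg/kg (n = 3), panobinostat at 5 mg/kg (n = 2, replicates 1 and 3, with no replicate 2 in the expression table) and the combination (n = 3). CBL0137 was given intravenously and vehicle and panobinostat into the peritoneum. The route and the drug therefore cannot be told apart for CBL0137, alone or in the combination. Each library was made from the total RNA of a whole, flash-frozen tumour after removal of ribosomal RNA, with a stranded kit. In such bulk samples fewer cells of a type and less RNA per cell cannot be told apart.

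Checkpoint molecules are cell surface or secreted proteins that restrain T cells, natural killer cells or macrophages. PD-L1 (Cd274) and PD-L2 (Pdcd1lg2) bind PD-1 on T cells, CD80 and CD86 on antigen-presenting cells bind the activating receptor CD28 and the inhibitory receptor CTLA-4, and CD47 binds SIRPalpha on macrophages and blocks phagocytosis. Cd274 is known as a gene that interferon induces through JAK kinases and IRF1, in tumour cells as well as in myeloid cells. CBL0137 is a curaxin, a DNA-binding compound that traps the histone chaperone FACT on chromatin, and panobinostat inhibits histone deacetylases.

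The stretches just upstream of 4 start sites are shown, for the PD-1 ligand pair, Lgals9 and Vsir. They were taken from the RefSeq promoter table (GRCm38.p6), which held entries for 7 of the 10 genes. Each is written 5′ to 3′ on the strand of its gene, shortened where it ran into an annotated exon, with capitals marking a motif found by its letters on either strand.
Cd274 (chr19:29367391-29367437, plus strand, ends short of a Plgrkt exon upstream): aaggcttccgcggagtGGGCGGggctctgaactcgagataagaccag
Pdcd1lg2 (chr19:29410669-29410918, plus strand): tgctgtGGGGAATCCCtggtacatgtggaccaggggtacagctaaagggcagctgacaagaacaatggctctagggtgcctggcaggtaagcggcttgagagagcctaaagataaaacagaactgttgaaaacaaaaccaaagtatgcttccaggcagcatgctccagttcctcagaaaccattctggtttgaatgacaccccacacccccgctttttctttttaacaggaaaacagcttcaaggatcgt
Lgals9 (chr11:78984947-78985174, minus strand): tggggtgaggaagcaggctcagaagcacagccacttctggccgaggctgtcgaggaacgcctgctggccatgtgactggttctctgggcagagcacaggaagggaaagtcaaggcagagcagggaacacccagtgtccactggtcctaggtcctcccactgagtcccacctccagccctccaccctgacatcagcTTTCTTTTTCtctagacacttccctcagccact
Vsir (chr10:60346601-60346850, plus strand): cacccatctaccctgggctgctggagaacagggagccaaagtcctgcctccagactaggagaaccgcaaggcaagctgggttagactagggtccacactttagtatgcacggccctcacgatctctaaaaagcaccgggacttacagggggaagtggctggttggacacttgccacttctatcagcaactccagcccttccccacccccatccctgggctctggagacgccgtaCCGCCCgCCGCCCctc
The capitals mark a GC box (GGGCGG) in Cd274, an NF-kB site in Pdcd1lg2, the core of an interferon-stimulated response element (GAAA and GAAA with any pair of bases between them, here as the reverse complement) at -55 to -46 from the RefSeq start site in Lgals9, and a pair of GC boxes, as reverse complements, in Vsir. Of 32851 RefSeq promoter windows of 250 bases, 2.98% held the interferon element core, 32.7% a GC box, 3.90% an NF-kB site, 7.02% a gamma-activated site (TTCNNNGAA) and 6.75% an AP-1 site (TGANTCA). Among the other genes with an entry, Cd80 and Havcr2 held an AP-1 site (at -42 to -36 and at -200 to -194) and Cd47 held GC boxes. No gene with an entry held a gamma-activated site in its window of 250 bases. The interferon element core was found in Lgals9 only, and the full window of Cd274, longer than the stretch printed, held neither. A match is a string of letters and no evidence of binding.

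Expression is given in TPM, a share of all transcripts that is scaled to transcript length and sums to 1000000 in each library, so the sequencing depth behind the values is unknown. Between 12856 and 14747 genes reached 1 TPM per library. The 10 markers of sympathoadrenal tumour cells had group means of at least 1 TPM in all groups. Libraries that stood apart were panobinostat replicate 3, in which 6 skeletal muscle markers summed to 9517 TPM, combination replicate 2, in which 5 adrenal cortex markers summed to 5225 TPM, vehicle replicate 2, in which 6 kidney markers summed to 428 TPM, and CBL0137 replicate 3, in which 8 B cell markers summed to 170 TPM. Skeletal muscle markers also summed to 719 TPM in combination replicate 1 and 591 TPM in CBL0137 replicate 2, against 6.94 to 65.0 TPM in the other 8 libraries, and combination replicate 1 had the highest T cell sum and the next-highest B cell sum, 70.7 TPM. Results are therefore also given without the first 4 of these libraries and without the 3 with muscle transcripts. Both settings, like leaving out a panobinostat replicate, leave 1 panobinostat library, which is then assumed to vary like the other groups. CBL0137 replicate 3 also had the highest level of its group for all 10 checkpoint genes. Nothing in the labels says which mice shared a litter or a day, and p-values measure the spread between these tumours.

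Every checkpoint gene was higher after the combination than after vehicle, and all 10 passed limma's test on log2(TPM + 1) (adjusted p under 0.05, 4 group means fitted over 11 libraries). All 10 rose, against 35.9% of the 15497 genes tested, where 30.1% fell, and the median log2 change was 2.88 over the checkpoint genes and 0.08 over all genes. After panobinostat 9 of the 10 rose, against 25.5% of all genes, where 16.9% fell, with medians of 1.66 and 0.10. After CBL0137 4 rose (Cd274, Lgals9, Cd47 and Vsir), against 4.99% of all genes, where 1.13% fell, with medians of 0.94 and -0.01. These comparisons share the vehicle libraries. Their libraries lay wholly above vehicle for 6 genes after CBL0137, where 18.6% of all genes did, and for 10 genes after panobinostat and after the combination, where 37.1% and 38.4% of all genes did. All 10 genes passed the filter of 1 TPM in at least 2 libraries, but Cd274, Cd80 and Pdcd1lg2 reached 1 TPM in treated libraries only, so that their passing the filter already rested on treated libraries. The log2(TPM + 1) scale understates the changes of such low genes. With quantile normalization 4 of the 9 calls after panobinostat stood, Cd274 (adjusted p = 0.184), Cd86 (0.0603), Pvr (0.242), Lag3 (0.492) and Havcr2 (0.0752) being lost. Without a filter on low values Cd274 lost its call after panobinostat (0.0648), and Cd47 (0.0739) and Vsir (0.0626) theirs after CBL0137. Without the 3 libraries with muscle transcripts the calls were 2 after CBL0137 (Cd274 and Lgals9), 4 after panobinostat (Lgals9, Cd47, Vsir and Havcr2) and 9 after the combination, where Pdcd1lg2 was lost.

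In vehicle tumours the order of the mean levels was led by Cd47 at 13.1 ± 2.91 TPM (SD, n = 3) and Lgals9 at 6.62 ± 1.60 TPM, whose libraries did not overlap. Cd86 and Vsir followed at 3.30 ± 0.824 and 3.29 ± 0.468 TPM and did not differ beyond their spread. Pvr, Havcr2 and Lag3 lay between 1.15 and 1.81 TPM with overlapping libraries, and Cd274, Cd80 and Pdcd1lg2 lay under 1 TPM. After the combination Lgals9 led at 283 ± 57.1 TPM, followed by Cd47 at 129 ± 23.6 TPM, with no overlap between them. Cd274, eighth in vehicle, was next at 63.5 ± 26.5 TPM, and its lowest library lay below the highest Vsir and Cd86 libraries. Vsir lay within the range of Cd86 (37.1 ± 0.876 and 36.9 ± 14.6 TPM), and Havcr2, Cd80, Pvr and Lag3, at 5.88 to 9.78 TPM on average, each overlapped the next in order. After CBL0137 the order was Lgals9, Cd47, Cd274, Cd86, Vsir, Pvr, Havcr2, Lag3, Cd80 and Pdcd1lg2, with overlap between all neighbours but Vsir and Pvr. After panobinostat Cd47 and Lgals9 overlapped at the top and Vsir stood apart from Cd86. The plot of levels in each library shows these values.

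**Figure D1:**
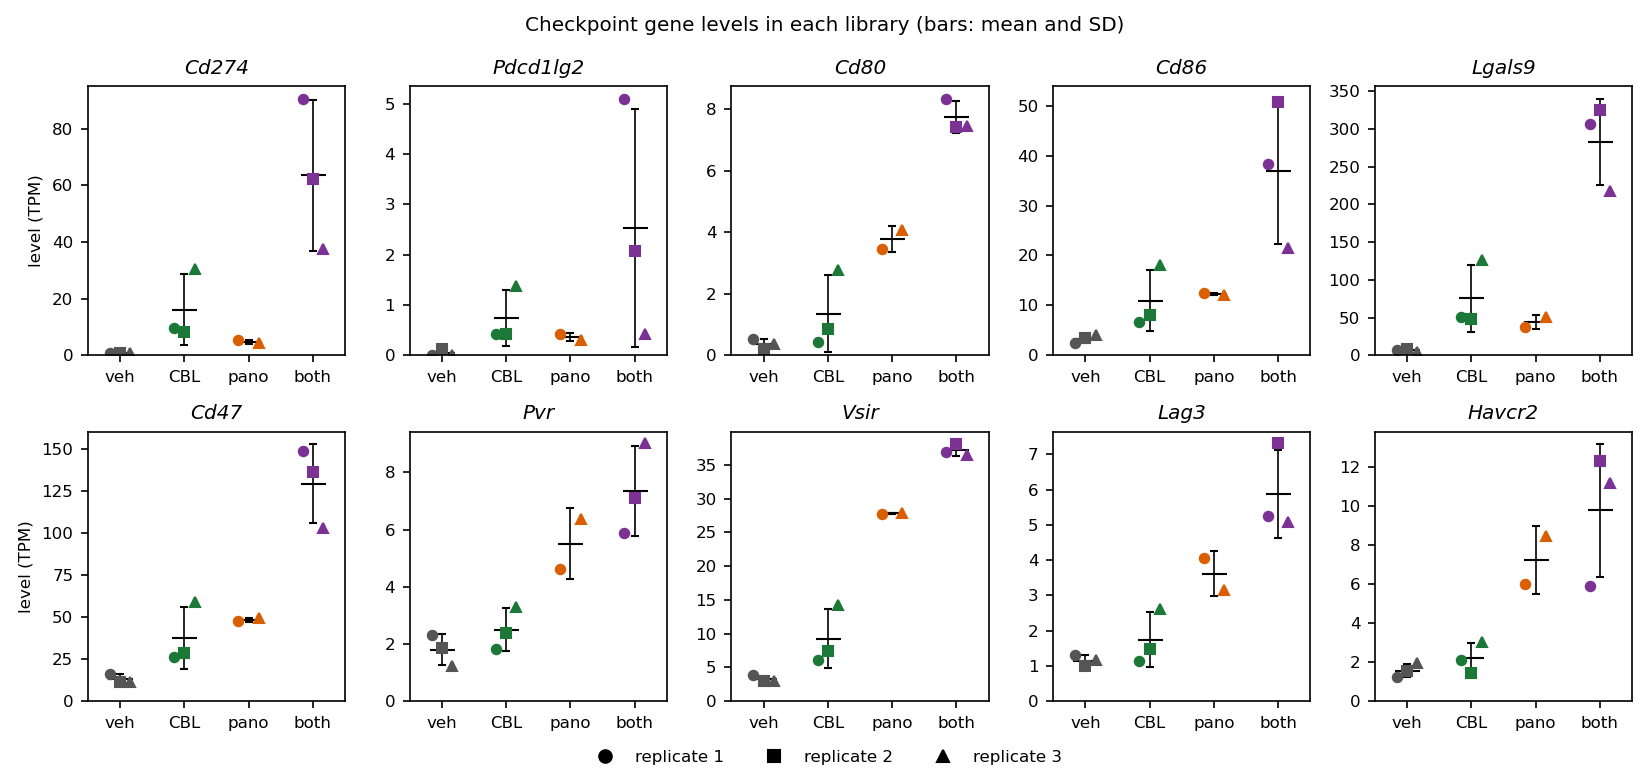
Level (TPM, linear axis from 0, a scale of its own in each panel) of the 10 checkpoint genes in each library of the vehicle (veh), CBL0137 (CBL), panobinostat (pano) and combination (both) groups, with the mean and the SD as bars, which end at 0 where they would pass below it. All combination libraries lie above all vehicle libraries in every panel, and CBL0137 replicate 3 is the highest of its group in each.

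Cd274 encodes PD-L1, the ligand that engages PD-1 on T cells. Its level was 0.91, 0.84 and 0.78 TPM in vehicle replicates 1 to 3, 9.67, 8.12 and 30.5 TPM after CBL0137, 5.31 and 4.23 TPM after panobinostat, and 90.5, 62.4 and 37.5 TPM after the combination. No library of one group overlapped one of another, and the order was vehicle, panobinostat, CBL0137, combination. The ratio of the means was 19.1 for CBL0137 (10.5 without CBL0137 replicate 3), 5.66 for panobinostat and 75.3 for the combination against vehicle. On the log2 scale Cd274 rose by 2.98 ± 0.44 (SE) after CBL0137 (limma adjusted p = 0.00452), by 1.64 ± 0.49 after panobinostat (0.0228) and by 5.04 ± 0.44 after the combination (1.27e-05). The call after panobinostat was lost without vehicle replicate 2 (adjusted p = 0.0507) or 3 (0.0574) and without panobinostat replicate 1 (0.10) or 3 (0.0728), and with a pseudocount of 5 (change 0.74, 0.181) or without the 3 libraries with muscle transcripts (0.0687). The change after CBL0137 was 2.42 (0.00231) without CBL0137 replicate 3. Cd274 lies on chromosome 19 (29367455 to 29388095, plus strand, mm10), and an antisense gene model overlaps it.

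Pdcd1lg2 encodes PD-L2, the second ligand of PD-1, known from dendritic cells and macrophages. It was listed at 0, 0.12 and 0 TPM in vehicle, 0.42, 0.43 and 1.38 TPM after CBL0137, 0.42 and 0.30 TPM after panobinostat, and 5.10, 2.07 and 0.43 TPM after the combination. The combination libraries spread widely, and replicate 3 was level with CBL0137 and panobinostat libraries. Pdcd1lg2 rose after the combination, by 1.53 ± 0.45 (SE, limma adjusted p = 0.0117), or by 1.01 without combination replicate 1 (0.0343), and the change of 1.01 without the 3 libraries with muscle transcripts did not pass (0.0556). After CBL0137 and panobinostat its changes were 0.70 ± 0.45 (0.364) and 0.39 ± 0.50 (0.557). The gene lies next to Cd274 on the same strand of chromosome 19 (29410919 to 29471161) and overlaps the antisense gene A930007I19Rik, which was at most 0.290 TPM.

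Cd80 encodes B7-1, which binds CD28 and, more tightly, CTLA-4. It was at 0.52, 0.20 and 0.37 TPM in vehicle, 0.42, 0.86 and 2.78 TPM after CBL0137, 3.47 and 4.07 TPM after panobinostat, and 8.34, 7.43 and 7.44 TPM after the combination. The combination libraries lay close together, above both panobinostat libraries, while CBL0137 overlapped vehicle. Cd80 rose by 1.81 ± 0.35 (SE) after panobinostat (limma adjusted p = 0.00309) and by 2.68 ± 0.31 after the combination (4.90e-05), and its change after CBL0137 was 0.67 ± 0.31 (0.224). The panobinostat call was lost without the 3 libraries with muscle transcripts (0.0585). Cd80 is at 38455561 to 38496335 on chromosome 16, plus strand.

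Cd86 encodes B7-2, the other CD28 and CTLA-4 ligand of antigen-presenting cells. It was at 2.41, 3.44 and 4.04 TPM in vehicle, 6.73, 8.12 and 18.0 TPM after CBL0137, 12.45 and 12.16 TPM after panobinostat, and 38.3, 50.7 and 21.6 TPM after the combination. Every treated library lay above every vehicle library, and both panobinostat libraries lay within the range of CBL0137. Cd86 rose by 1.65 ± 0.41 (SE) after panobinostat (limma adjusted p = 0.00987) and by 3.08 ± 0.37 after the combination (5.70e-05). The panobinostat call was lost without panobinostat replicate 3 (adjusted p = 0.0520) and without the 3 libraries with muscle transcripts (0.0919). After CBL0137 the change of 1.38 ± 0.37 did not pass (0.0558), and it passed without CBL0137 replicate 1 (0.0433), combination replicate 2 (0.0433) or combination replicate 3 (0.0384), and also with a pseudocount of 0.1 (0.0366), a filter of 5 TPM (0.0456), TMM factors (0.0457) or TPM rescaled without small structural RNA and histone genes (0.0481). Cd86 is at 36603869 to 36666081 on chromosome 16, minus strand.

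Lgals9 encodes galectin-9, a secreted lectin described as a ligand of TIM-3. It was at 6.94, 8.04 and 4.89 TPM in vehicle, 51.3, 48.0 and 127 TPM after CBL0137, 37.3 and 50.7 TPM after panobinostat, and 306, 325 and 218 TPM after the combination. The lowest combination library exceeded the highest library of the other groups, and CBL0137 and panobinostat overlapped. Lgals9 rose by 3.20 ± 0.34 (SE) after CBL0137 (limma adjusted p = 0.000704), by 2.57 ± 0.38 after panobinostat (0.00102) and by 5.22 ± 0.34 after the combination (4.85e-06). Without CBL0137 replicate 3 the change after CBL0137 was 2.75 (0.000197). Lgals9 is on chromosome 11 (78962974 to 78984946, minus strand), and its window holds the interferon element core printed above.

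Cd47 encodes the ligand of SIRPalpha and is made by nearly all cell types. It was at 16.4, 11.5 and 11.3 TPM in vehicle, 26.0, 28.4 and 59.0 TPM after CBL0137, 47.7 and 49.3 TPM after panobinostat, and 149, 136 and 103 TPM after the combination. All treated libraries lay above vehicle and all combination libraries above the single drugs. Cd47 rose by 1.38 ± 0.28 (SE) after CBL0137 (limma adjusted p = 0.0207), by 1.83 ± 0.32 after panobinostat (0.00180) and by 3.21 ± 0.28 after the combination (1.29e-05). The CBL0137 call was lost without vehicle replicate 2 (adjusted p = 0.0753) or 3 (0.0907), without the 3 libraries with muscle transcripts (0.0663), and without the 4 libraries that stood apart (change 0.94, 0.101). Cd47 is on chromosome 16 (49800533 to 49915010, plus strand).

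Pvr encodes CD155, an adhesion molecule bound by the inhibitory receptors TIGIT and CD96 and by the activating receptor CD226. It was at 2.33, 1.85 and 1.24 TPM in vehicle, 1.84, 2.38 and 3.30 TPM after CBL0137, 4.64 and 6.39 TPM after panobinostat, and 5.90, 7.11 and 9.03 TPM after the combination. CBL0137 overlapped vehicle, and panobinostat overlapped the combination. Pvr rose by 1.22 ± 0.26 (SE) after panobinostat (limma adjusted p = 0.00517) and by 1.57 ± 0.24 after the combination (0.000229). The panobinostat call was lost without panobinostat replicate 3 (adjusted p = 0.0504), without the 4 libraries that stood apart (0.0743) and without the 3 with muscle transcripts (0.0863), all of which leave 1 panobinostat library. Its change after CBL0137 was 0.32 ± 0.24 (0.440), which was -0.04 with quantile normalization. Pvr is on chromosome 7 (19903578 to 19921160, minus strand), and a pseudogene and an antisense gene model overlap it.

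Vsir encodes VISTA, a B7-like molecule of myeloid and T cells that acts both as a ligand and as a receptor. It was at 3.83, 3.03 and 3.01 TPM in vehicle, 6.09, 7.49 and 14.2 TPM after CBL0137, 27.8 and 27.9 TPM after panobinostat, and 36.9, 38.1 and 36.4 TPM after the combination. The 4 groups did not overlap, and CBL0137 had by far the widest spread. Vsir rose by 1.18 ± 0.24 (SE) after CBL0137 (limma adjusted p = 0.0198), by 2.75 ± 0.27 after panobinostat (0.000439) and by 3.16 ± 0.24 after the combination (7.37e-06). The CBL0137 call was lost without vehicle replicate 2 (adjusted p = 0.0707) or 3 (0.0845) and without the 4 libraries that stood apart (change 0.82, 0.0773), without the 3 with muscle transcripts (0.0859), and when only these groups were fitted (0.0503). Vsir is on chromosome 10 (60346851 to 60372684, plus strand) within Cdh23, which runs on the opposite strand. Whether the counting used the strand is not given in the sources used here. Cdh23 stayed between 0.06 and 1.03 TPM over all libraries.

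Lag3 encodes a receptor of activated T cells and natural killer cells that binds MHC class II. It was at 1.30, 0.99 and 1.16 TPM in vehicle, 1.14, 1.48 and 2.62 TPM after CBL0137, 4.06 and 3.16 TPM after panobinostat, and 5.24, 7.32 and 5.08 TPM after the combination. CBL0137 overlapped vehicle, and the other treated groups lay above both. Lag3 rose by 1.10 ± 0.26 (SE) after panobinostat (limma adjusted p = 0.00743) and by 1.67 ± 0.23 after the combination (0.000135). The panobinostat call was lost without panobinostat replicate 1 (adjusted p = 0.0514) and without the 3 libraries with muscle transcripts (0.0596). Its change after CBL0137 was 0.32 ± 0.23 (0.426), and -0.01 with quantile normalization. Lag3 is on chromosome 6 (124904361 to 124911705, minus strand).

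Havcr2 encodes TIM-3, a receptor of T cells, dendritic cells and macrophages. It was at 1.24, 1.53 and 1.94 TPM in vehicle, 2.10, 1.47 and 3.04 TPM after CBL0137, 6.01 and 8.46 TPM after panobinostat, and 5.88, 12.3 and 11.2 TPM after the combination. Vehicle and CBL0137 overlapped, as did panobinostat and the combination, and the latter pair lay wholly above the former. Havcr2 rose by 1.67 ± 0.32 (SE) after panobinostat (limma adjusted p = 0.00290) and by 2.02 ± 0.29 after the combination (0.000154). Its change after CBL0137 was 0.30 ± 0.29 (0.555), and -0.06 with quantile normalization. Havcr2 is on chromosome 11 (46454935 to 46481255, plus strand).

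**Figure D2:**
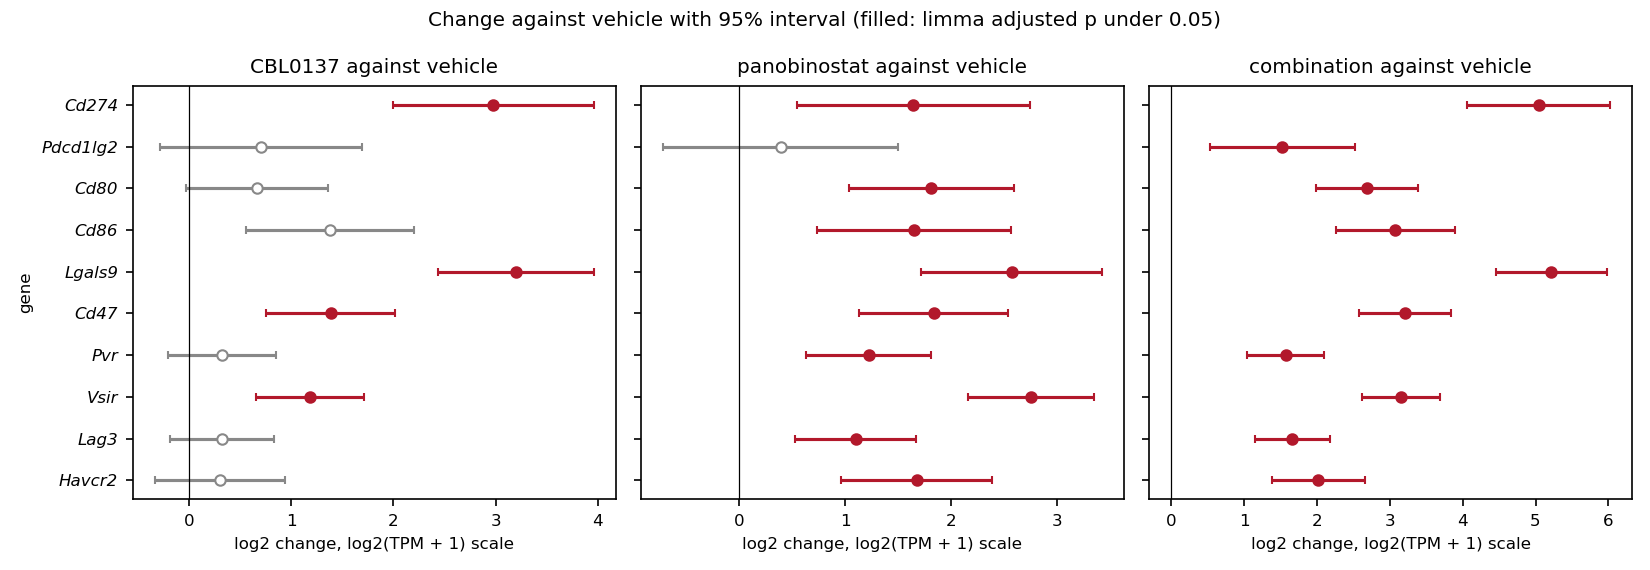
Log2 change against vehicle, on the log2(TPM + 1) scale, of the 10 checkpoint genes after CBL0137, panobinostat and the combination, with 95% intervals from limma; filled points have an adjusted p under 0.05. Filled points number 4, 9 and 10 in the 3 panels, which have different horizontal ranges.

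What panobinostat added to CBL0137 was addressed by the comparison of the combination with CBL0137. Of the 10 genes 9 rose, against 33.2% of all genes, with a median of 1.78 against 0.12 over all genes, and the libraries of the same 9 did not overlap, against 36.9% of all genes. The changes of the 9 ran from 1.26 ± 0.24 (SE) for Pvr (limma adjusted p = 0.00157) to 2.06 ± 0.44 for Cd274 (0.00297). Cd80, Lgals9 and Vsir changed by 2.02 ± 0.31, 2.02 ± 0.34 and 1.97 ± 0.24. Pdcd1lg2 did not pass (0.82 ± 0.45, adjusted p = 0.140), and it passed without combination replicate 3 (1.36, 0.00785). Without the 3 libraries with muscle transcripts Cd274 (1.43, 0.0539) and Cd86 (1.49, 0.0562) did not pass.

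What CBL0137 added to panobinostat was addressed by the comparison of the combination with panobinostat. Cd274, Lgals9 and Cd47 rose, 3 of 10 genes against 6.24% of all genes, with a median of 1.01 over the 10 against -0.02 over all genes. Libraries did not overlap for 8 of the 10, against 25.1% of all genes, Pvr and Havcr2 being the exceptions. Cd274 rose by 3.40 ± 0.49 (SE, limma adjusted p = 0.00486), Lgals9 by 2.65 ± 0.38 (0.00482) and Cd47 by 1.38 ± 0.32 (0.0307). Cd274 and Lgals9 kept the call without any single library. Cd47 lost it without vehicle replicate 3 (0.0518), panobinostat replicate 1 (0.147) or 3 (0.0811), or combination replicate 1 (0.0720) or 2 (0.0784), and without a filter on low values (0.0788). Without the 3 libraries with muscle transcripts, which leaves 1 panobinostat library, none of the 3 passed (Cd274 2.97, 0.102, Lgals9 2.80, 0.0945, and Cd47 1.29, 0.171), and 67 of all genes did. Cd86, at 1.43 ± 0.41, did not pass (0.0526), and passed without CBL0137 replicate 3 (0.0197) or combination replicate 3 (0.0186), with a pseudocount of 5 (0.0421), with a filter of 5 TPM (0.0449) or with quantile normalization (0.0275). Cd80, at 0.87 ± 0.35 (0.114), passed without CBL0137 replicate 3 (0.0242), with a pseudocount of 5 (0.0369) or with quantile normalization (0.0346), and Pdcd1lg2, at 1.14 ± 0.50 (0.139), without combination replicate 3 (0.0189). The 95% intervals of Vsir, Pvr and Havcr2 were -0.19 to 1.00, -0.24 to 0.94 and -0.36 to 1.06.

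Between the single drugs, Vsir, Havcr2, Cd80 and Pvr were lower after CBL0137 than after panobinostat and passed the test, 4 of 10 genes against 12.1% of all genes that were lower, and 0 of 10 passed in the other direction, against 6.81%. The changes were -1.57 ± 0.27 (SE) for Vsir (limma adjusted p = 0.0102), -1.38 ± 0.32 for Havcr2 (0.0199), -1.14 ± 0.35 for Cd80 (0.0467) and -0.90 ± 0.26 for Pvr (0.0415). Libraries lay wholly lower after CBL0137 for these genes and Lag3, 5 of 10 against 30.7% of all genes, and wholly higher for Cd274, 1 of 10 against 22.2%. Cd274 was at 16.1 ± 12.5 TPM after CBL0137 (SD, n = 3) and 4.77 ± 0.764 TPM after panobinostat (n = 2), a log2 difference of 1.34 with a 95% interval of 0.24 to 2.44 that did not pass (adjusted p = 0.0823). These calls rested on few libraries, and 0 of 10 passed when only these groups were fitted. Without panobinostat replicate 3, which leaves 1 library in that group with the spread taken from the other groups, no checkpoint gene passed (Vsir 0.0695, Havcr2 0.124, Cd80 0.186 and Pvr 0.213), and 0 of all genes did. Leaving out the 3 libraries with muscle transcripts gave 0 calls among the 10 and 0 over all genes. Without CBL0137 replicate 1 or 2 only Vsir passed, and without CBL0137 replicate 3 there were 6 calls, Cd47 (-0.81, 0.0216) and Lag3 (-0.99, 0.0146) being added. Without vehicle replicate 2 or 3 or panobinostat replicate 1 there were 2 calls, Vsir and Havcr2. With quantile normalization the 2 calls were Vsir and Cd274 (1.84, 0.0258), and Cd86, at -0.27, was at 0.02. Cd80 lost its call in 10 of the 11 fits that left out a single library, CBL0137 replicate 3 being the exception.

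**Figure D3:**
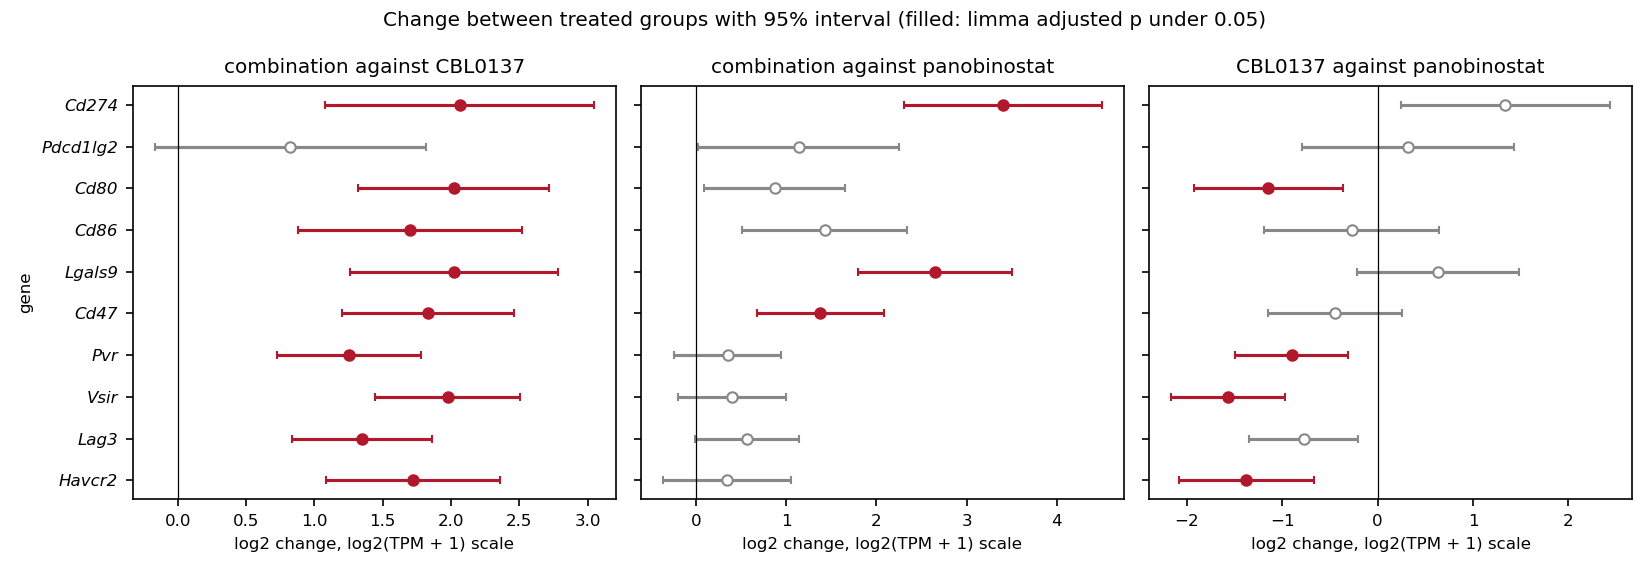
Log2 difference between treated groups, on the log2(TPM + 1) scale, of the 10 checkpoint genes with 95% intervals from limma; filled points have an adjusted p under 0.05. Panobinostat added to CBL0137 gives 9 filled points, CBL0137 added to panobinostat gives 3, and the single drugs differ in 4 genes, all lower after CBL0137.

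Whether the drugs departed from adding up was tested as an interaction on the log2 scale, taking the change after both drugs and subtracting the changes seen with each alone. Of the 10 genes 0 passed, and 0 of all genes (0%) did. At an unadjusted p under 0.05 limma gave 0 of the 10 and 1631 of the 15497 genes. The lowest p was that of Vsir, with an interaction of -0.78 (95% interval -1.58 to 0.02, adjusted p = 0.483). The interval of Cd274, -1.05 to 1.89, and that of Lgals9, -1.69 to 0.60, allowed departures in both directions. A log2 sum is a product on the linear scale. In TPM, the rise of the mean after the combination was 3.26 times the summed rises of the single drugs for Cd274, 2.60 for Lgals9, 2.44 for Pdcd1lg2, 2.01 for Cd86, 1.93 for Cd47, 1.68 for Cd80, 1.55 for Lag3, 1.30 for Havcr2, 1.26 for Pvr and 1.11 for Vsir. These ratios are a description with no test. That of Cd274 was 5.23 without CBL0137 replicate 3, and that of Pdcd1lg2 was 1.18 without combination replicate 1. Every combination library of Cd274, from 37.5 TPM upward, lay above the additive level of 20.0 TPM. Those of Lgals9, Cd80, Cd86, Cd47, Lag3 and Vsir also all lay above the additive levels of these genes. Pdcd1lg2, Pvr and Havcr2 had a combination library below theirs.

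**Figure D4:**
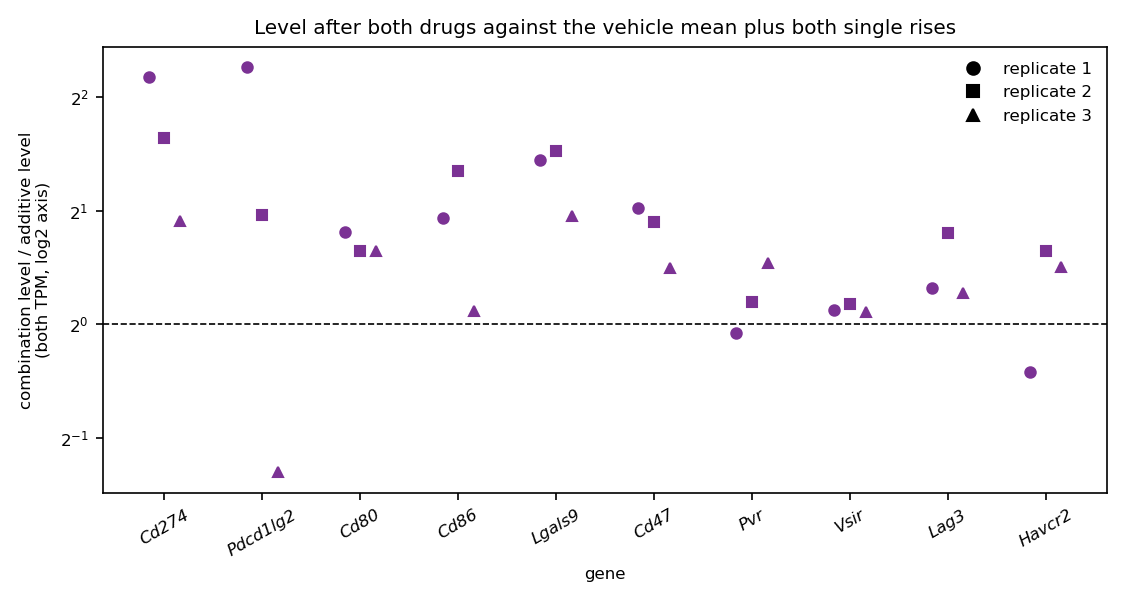
Level in each combination library divided by the additive level, which is the vehicle mean plus the rises of the means after CBL0137 and after panobinostat (both in TPM, log2 axis, dashed line at equality). Cd274, Lgals9, Cd80, Cd86, Cd47 and Lag3 lie above the line in all 3 libraries, the Vsir libraries lie just above it, and Pdcd1lg2, Pvr and Havcr2 each have a library below it.

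Summed markers of macrophages and monocytes and of dendritic cells, which carry some of these molecules, were also higher in the treated groups than in vehicle. The 18 macrophage and monocyte markers summed to between 933 and 1160 TPM in vehicle, 2045 and 4119 TPM after CBL0137, 5020 and 6392 TPM after panobinostat, and 8241 and 11950 TPM after the combination. Against vehicle, 12, 18 and 18 of the 18 rose, where 4.99%, 25.5% and 35.9% of all genes did, and Ly6c2 alone was at 0 in a vehicle library. The 9 dendritic cell markers summed to between 10.2 and 12.2 TPM, 21.4 and 48.3 TPM, 36.9 and 41.85 TPM, and 63.7 and 75.8 TPM in the same order, with Xcr1, Siglech and Cd209a at 0 in at least 1 vehicle library. Of the 7 tested 2, 3 and 6 rose, but 3 of the 9 had a vehicle mean of at least 1 TPM, so that most entered the test through treated libraries. Markers of other cell types moved as well: all 9 endothelial and 10 fibroblast markers rose after panobinostat and after the combination, where 25.5% and 35.9% of all genes did. All 7 neutrophil markers rose too, but 3 of the 7 had a vehicle mean of at least 1 TPM. The others may have passed the filter through treated libraries. Of the 8 B cell markers 1 rose in each comparison with vehicle, and 1 of the 8 had a vehicle mean of at least 1 TPM. Of the 10 sympathoadrenal markers 5 fell and 2 rose after the combination, where 30.1% of all genes fell and 35.9% rose. Between the single drugs, 12 of the 18 macrophage and monocyte markers were lower after CBL0137 than after panobinostat and 0 were higher. Of all genes 12.1% were lower and 6.81% higher. Cd274 libraries lay the other way, wholly higher after CBL0137. The part of all these cell types in the results was not tested.

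T cell and natural killer cell markers, from cells known to carry Lag3 and Havcr2, were low. The 13 T cell markers summed to between 6.87 and 8.78 TPM in vehicle, 11.4 and 95.9 TPM after CBL0137, 19.6 and 20.1 TPM after panobinostat, and 37.0 and 118 TPM after the combination. Of the 12 tested against vehicle 0, 1 and 6 rose, where 4.99%, 25.5% and 35.9% of all genes did. Of the 13, 2 had a vehicle mean of at least 1 TPM, so that most entered the test through treated libraries. Cd3d, Cd3e, Cd3g, Cd5, Cd2 and Trat1 were at 0 in at least 1 vehicle library, and Trat1 in all of them. The 8 natural killer and cytotoxic markers summed to at most 0.680 TPM in vehicle, where Ncr1, Gzmb and Klre1 were at 0 in all libraries, to between 2.37 and 10.3 TPM after CBL0137, to 1.39 and 2.25 TPM after panobinostat, and to between 4.07 and 29.3 TPM after the combination. The 4 that passed the filter did so through treated libraries, so no count of calls is given for them. Lag3 was at 1.14 to 2.62 TPM after CBL0137 and at 4.06 and 3.16 TPM after panobinostat. In the panobinostat libraries Cd4, a member of the T cell sum, was at 7.96 and 9.02 TPM. Cd3d, Cd3e and Cd3g were at most 0.890 TPM there. The part of T cells and natural killer cells in the results was not tested.

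Divided by the macrophage and monocyte sum of the same library, a scaling chosen after the values were seen, the genes showed different patterns. Cd274 was at 0.695 to 0.976 TPM per 1000 TPM of these markers in vehicle and 0.662 to 1.06 after panobinostat, and at 3.97 to 7.41 after CBL0137 and 4.24 to 10.99 after the combination. Lgals9 had 4.36 to 7.44 in vehicle, 7.43 to 7.93 after panobinostat, 22.9 to 30.7 after CBL0137 and 24.6 to 37.1 after the combination. For both genes the CBL0137 and combination libraries thus lay wholly above the vehicle and panobinostat libraries. Cd86, Cd47 and Vsir did not separate in this way. Cd47 was at 9.88 to 17.6 in vehicle and 11.4 to 18.0 after the combination. Lag3 was lower in every treated library (0.494 to 0.809) than in vehicle (0.853 to 1.39). Havcr2 was wholly below vehicle (1.32 to 1.73) after CBL0137 (0.719 to 0.937) and the combination (0.714 to 1.26). Pvr was wholly below vehicle (1.10 to 2.50) after panobinostat (0.924 to 1.00) and the combination (0.595 to 1.02). Cd86 and Cd47 were so after panobinostat. Cd80 lay wholly above vehicle (0.172 to 0.558) after panobinostat (0.637 to 0.691) and the combination (0.622 to 1.01). Vsir did so after panobinostat, and Pdcd1lg2 after CBL0137. Divided by the T cell sum instead, Lag3 was at 113 to 189 TPM per 1000 TPM in vehicle, 27.3 to 99.7 after CBL0137, 157 to 207 after panobinostat and 44.3 to 165 after the combination, so that only CBL0137 lay wholly below vehicle. No test was run on these ratios, and the levels of these genes in other cell types are part of them.

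**Figure D5:**
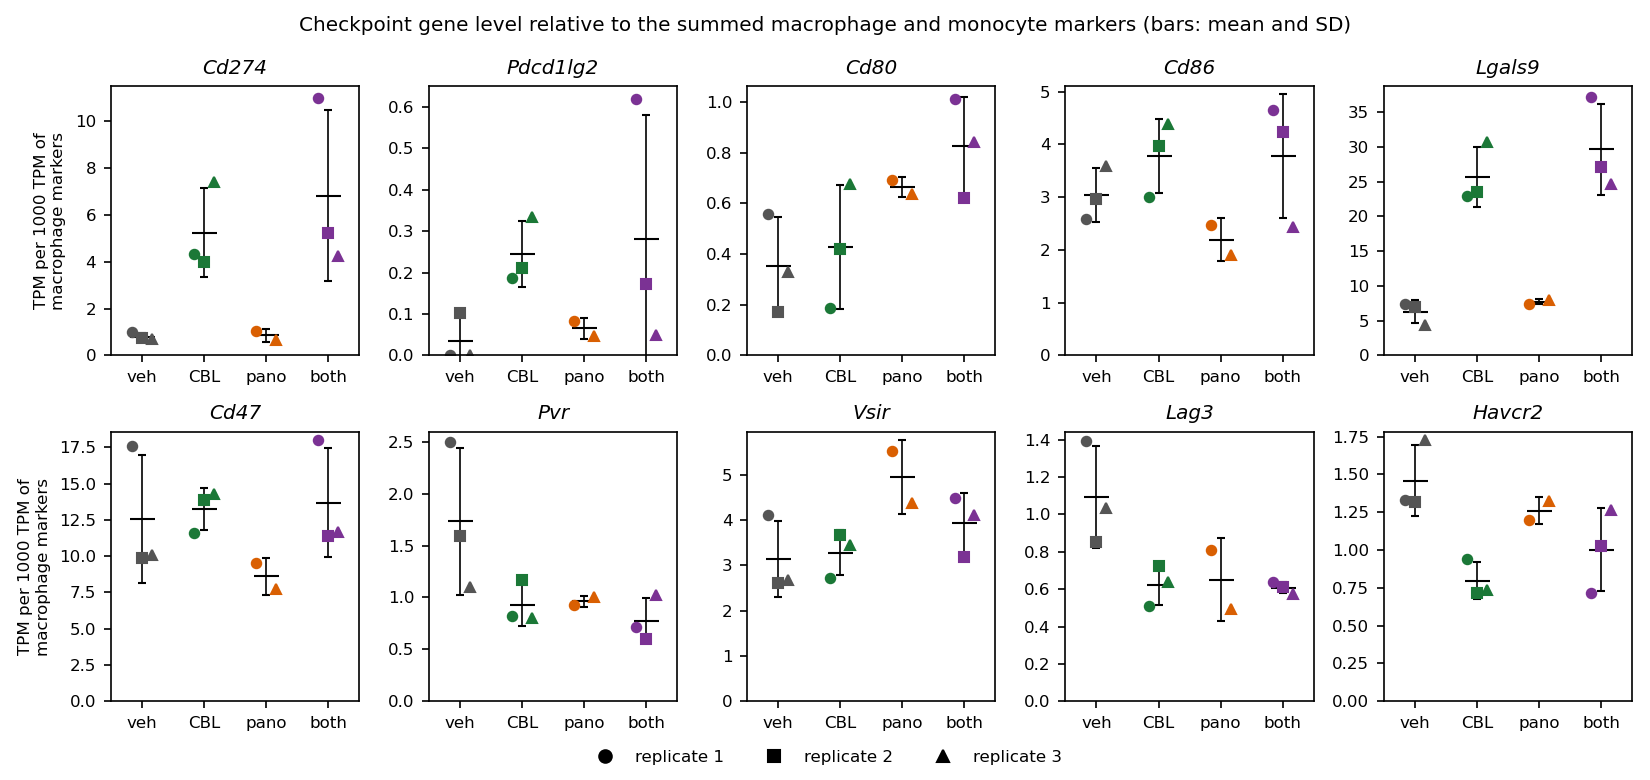
Level of the 10 checkpoint genes divided by the summed TPM of 18 macrophage and monocyte markers in the same library (TPM per 1000 TPM of markers, linear axis from 0), with the mean and the SD of each group as bars that end at 0. Cd274 and Lgals9 are high in CBL0137 and combination libraries and low in vehicle and panobinostat libraries, and Lag3, on this scale, is lower in all treated libraries than in vehicle. Havcr2 (CBL0137 and combination) and Pvr (panobinostat and combination) also lie wholly below vehicle, while Cd80 (panobinostat and combination) lies wholly above.

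The receptors and further ligands that these molecules meet were followed as a list of 16 genes, of which 15 were tested. Against vehicle 1 rose after CBL0137 (0 fell), 6 rose and 1 fell after panobinostat, and 8 rose and 1 fell after the combination, with medians of 0.54, 0.70 and 1.24. Of all genes 4.99%, 25.5% and 35.9% rose and 1.13%, 16.9% and 30.1% fell, with medians of -0.01, 0.10 and 0.08, and the lists that follow stand against the same values. Genes under 1 TPM in every vehicle library, among them Pdcd1, Ctla4, Cd28, Cd226, Cd96, Icos and Cd40, entered the tests through treated libraries, which bears on the counts of their lists. Sirpa, the CD47 receptor of macrophages, had 26.2 to 28.7 TPM in vehicle, 35.8 to 66.8 after CBL0137, 113 to 114 after panobinostat and 146 to 195 after the combination. It rose by 2.00 ± 0.24 (SE, limma adjusted p = 0.000534) after panobinostat and by 2.56 ± 0.21 (1.05e-05) after the combination. Sirpa was lower after CBL0137 than after panobinostat (-1.34 ± 0.24, adjusted p = 0.0108). Lgals3, which encodes galectin-3, described as a LAG-3 ligand, rose in all 3 treated groups, by 2.06 ± 0.26, 2.58 ± 0.29 and 3.79 ± 0.26, to between 495 and 579 TPM after the combination. Ceacam1, described as a TIM-3 partner, rose by 1.69 ± 0.27 after panobinostat and by 2.48 ± 0.25 after the combination. Hmgb1, a nuclear protein described as a TIM-3 ligand, was the member that fell, by 0.93 after panobinostat and by 1.59 after the combination. Pvrl2, a CD155 relative that binds TIGIT and CD226, rose by 0.79 ± 0.18 and 1.40 ± 0.16 in those groups.

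The T cell receptors of the ligands stayed low in all groups. Pdcd1, which encodes PD-1, had at most 0.130 TPM in vehicle and 1.15 TPM in its highest library, combination replicate 1. It reached 1 TPM in that library and in CBL0137 replicate 3 only, and it passed after the combination (0.74 ± 0.27 SE, limma adjusted p = 0.0335). Ctla4 was at most 2.22 TPM and did not pass in any comparison with vehicle (adjusted p of 0.420, 0.414 and 0.0872). Cd28, the activating partner of CD80 and CD86, rose by 1.28 ± 0.42 after panobinostat (0.0342) and by 1.51 ± 0.38 after the combination (0.00536), to at most 4.38 TPM. Cd226 rose after the combination (1.24 ± 0.38, 0.0149). Cd96 did not pass against vehicle, and Tigit, at most 1.14 TPM, was below the filter. Fgl1, a liver protein described as a LAG-3 ligand, was at 0 to 6.51 TPM in 10 libraries and at 38.9 TPM in panobinostat replicate 3.

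Among related molecules, 2 of 4 tested genes of the other B7 and CD28 family list rose after the combination, Icosl by 1.92 ± 0.39 (SE, limma adjusted p = 0.00147) and its receptor Icos by 1.08 ± 0.38 (0.0283), and 0 did after either single drug, where 35.9%, 4.99% and 25.5% of all genes rose after the combination, CBL0137 and panobinostat. Icos reached 1 TPM in CBL0137 replicate 3 and combination replicate 1 only. TNF family co-stimulators rose in 2, 4 and 6 of 9 tested genes after CBL0137, panobinostat and the combination, against 4.99%, 25.5% and 35.9% of all genes. Of the 12 genes of this list 1 had a vehicle mean of at least 1 TPM, so most entered the test through treated libraries. The shares of all genes are therefore no fair measure for these counts. Cd40, through which T cells activate antigen-presenting cells, went from at most 0.540 TPM in vehicle to 15.3 to 36.4 TPM after the combination, and changed by 2.28 ± 0.42, 1.37 ± 0.47 and 4.17 ± 0.42 in the 3 groups. Tnfrsf14, a receptor of the ligand LIGHT, rose by 1.86 ± 0.38, 1.78 ± 0.43 and 3.66 ± 0.38. Other inhibitory molecules rose in 8, 10 and 13 of 17 tested genes, against the same shares, with 0, 1 and 1 that fell. Lilrb4a, an inhibitory receptor of myeloid cells, was at 11.9 to 13.0 TPM in vehicle and 385 to 445 TPM after the combination. H2-T23, which encodes the Qa-1 ligand of NKG2A, rose by 3.20 ± 0.40 after CBL0137, by 2.33 ± 0.45 after panobinostat and by 5.14 ± 0.40 after the combination. Cd24a, which encodes the ligand of Siglec-10 and its mouse relative, was the one that fell, by 1.00 after panobinostat and by 2.29 after the combination.

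Interferon and JAK-STAT regulators, the list that holds the known inducers of Cd274, rose in 9, 13 and 16 of 16 genes after CBL0137, panobinostat and the combination, against 4.99%, 25.5% and 35.9% of all genes, with medians of 0.90, 1.30 and 2.37 against -0.01, 0.10 and 0.08. Irf7, an interferon-induced transcription factor, was at 1.55 to 2.39 TPM in vehicle, 88.5 to 263 after CBL0137, 7.24 to 10.3 after panobinostat and 337 to 720 after the combination. The groups did not overlap and stood in the order seen for Cd274. The list as a whole did not: 4 of the 16 genes were higher after CBL0137 than after panobinostat and 4 lower. Of all genes 6.81% were higher and 12.1% lower, and the medians were -0.30 for the list and -0.11 for all genes. The part of these regulators in the changes of Cd274 was not tested. Irf7 and Irf9 were higher after CBL0137 than after panobinostat, by 3.77 ± 0.46 and 1.64 ± 0.27 (SE, limma adjusted p = 0.00476 and 0.00980), while Ifngr1, a chain of the interferon-gamma receptor, was lower (-1.16 ± 0.25, 0.0169). After panobinostat the lowest adjusted p of the list was that of Socs3, an inhibitor of JAK signalling (2.29 ± 0.28, 0.000568). These lists were assembled with earlier results of these tumours known. Fewer list genes passed without the 3 libraries with muscle transcripts: 5 interferon and JAK-STAT regulators after CBL0137 and 5 after panobinostat, 1 and 0 TNF family co-stimulators, and 1 of the other B7 and CD28 family genes after the combination. Leaving out the 4 libraries that stood apart gave 5 and 11 interferon and JAK-STAT regulators, 0 and 2 TNF family co-stimulators, and 3 of the other inhibitory molecules after CBL0137.

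Genes acting on PD-L1 protein stability were 5 in number. Cmtm6, which keeps PD-L1 from degradation, rose after the combination by 1.47 ± 0.23 (SE, limma adjusted p = 0.000266), with 16.45 to 19.43 TPM in vehicle and 37.1 to 62.0 TPM after it. Its changes after CBL0137 and panobinostat were 0.17 ± 0.23 (0.677) and 0.59 ± 0.25 (0.0877). The other 4 fell after the combination, Cops5, a deubiquitinase subunit, by 0.44, Stub1, a ubiquitin ligase, by 0.44, Cmtm4, a relative of Cmtm6, by 0.57 and Hip1r, which carries PD-L1 to the lysosome, by 0.50. Cops5, Cmtm4 and Stub1 also fell after panobinostat, and 0 of the 5 passed after CBL0137. Of all genes 16.9% fell after panobinostat and 30.1% after the combination. After panobinostat 0 of the 5 passed without the 3 libraries with muscle transcripts, and 1 without the 4 that stood apart.

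Around Cd274, the genes within 150 kb on chromosome 19 did not all move with it. Jak2, the kinase upstream, was at 12.3 to 12.7 TPM in vehicle and 36.6 to 59.5 TPM after the combination, a rise of 1.86 ± 0.21 (SE, limma adjusted p = 3.81e-05). Insl6 and Plgrkt rose by 2.89 ± 0.35 and 0.94 ± 0.19 after the combination, where 35.9% of all genes rose. Insl6 was at 0.23 to 0.82 TPM in vehicle, so it passed the filter through treated libraries. Ric1, beyond Pdcd1lg2, was at 24.3 to 30.3 TPM in vehicle and 32.1 to 33.45 TPM after the combination (0.29 ± 0.14, 0.0852). After CBL0137 Cd274 was the only one of the 6 tested genes of this stretch that passed, where 4.99% of all genes rose and 1.13% fell. Insl6 changed by 1.29 ± 0.35 (0.0597) in that comparison, and Rln1 was below the filter.

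The genes most like each checkpoint gene were found by the root mean square difference of log2(TPM + 1), centred on each gene's mean, over the 11 libraries, for the 6 checkpoint genes with an SD of at least 1. Helz2, Dtx3l and Sp110 were nearest to Cd274, with differences of 0.16, 0.20 and 0.20. Slfn2, Lgals3bp and Fcgr4 were nearest to Lgals9 (0.18, 0.20 and 0.20), and Fam114a1, C1qtnf6 and Cyth4 to Vsir (0.15, 0.16 and 0.17). Vav3, Bcl6 and B4galt1 were nearest to Cd80 (0.14, 0.14 and 0.15). Cd86 and Cd47 shared Vrk2 as the nearest gene (0.22 and 0.17), followed by Unc93b1 and P2rx4 for Cd86 and by Myo1g and Apobr for Cd47. The measure describes these 11 libraries and has no test.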

How the data were processed

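RNA was measured in 11 tumours, 1 library each. The authors deposited gene-level TPM, produced with STAR, SAMtools and RSEM against mm10, per the submitters' processing notes, with versions not given in the sources used here. No counts were used, so depth is unknown, and the number of tumours limits the precision. Gene positions came from GENCODE M21 and promoter sequences from RefSeq GRCm38.p6. From the deposited TPM, log2(TPM + 1) was fitted with limma 3.58.1 (R 4.3.3) as 4 group means, with a mean-variance trend, over the 15497 of 24411 genes that reached 1 TPM in 2 or more libraries. The fit had 7 residual degrees of freedom. P-values were adjusted by Benjamini-Hochberg over all genes tested and called under 0.05 in 7 comparisons. The fit was tested on simulated data. The genes and lists were chosen with earlier results of these data known. All 10 checkpoint genes are named, with up to 4 called genes per list and comparison by lowest adjusted p, a fixed set of partners with their levels, and the 3 nearest genes by pattern. Pvrl2, named outside this rule, was chosen after its values were seen, and the genes near Cd274 by position. Alternatives were pseudocounts of 0.1 and 5, no filter and a filter of 5 TPM, scaling factors from the trimmed mean of M values (TMM), quantile normalization, TPM rescaled without small structural RNA and histone genes, a replicate block, no trend, only the groups compared, and each library left out. Leaving out the 4 libraries that stood apart, or the 3 with muscle transcripts, was added after seeing the data. A gene of the interferon list that the naming rule selects is not reported here.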

Additional observations from a re-analysis of the deposited data

How the results depend on the processing

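Of 39 calls on checkpoint genes in 6 comparisons, 21 stood under every alternative that gave a value: Cd274 and Lgals9 after CBL0137, Lgals9, Cd47 and Vsir after panobinostat, 9 after the combination (all but Pdcd1lg2) and 7 in the combination against CBL0137 (all but Cd274 and Cd86 of the 9). Without the 3 libraries with muscle transcripts, which leaves 8 libraries, checkpoint and all-gene calls were 2 and 516 after CBL0137, 4 and 2599 after panobinostat, 0 and 67 in the combination against panobinostat, and 0 and 0 between the single drugs. After CBL0137 the 4 calls became 2 without a filter and 2 without the 4 libraries that stood apart, and the 949 calls over all genes became 547 with a pseudocount of 5, 471 without a filter, 521 with the replicate block and 381 without the 4 libraries. After panobinostat the 9 became 4 with quantile normalization, which moved the median change of all genes from 0.10 to -0.18, and after the combination from 0.08 to -0.26. In the combination against panobinostat the 3 calls became 5 with a pseudocount of 5 and 5 with quantile normalization, and the 1634 over all genes became 617 without a filter, 3327 with quantile normalization, 345 with the replicate block, 523 with only the groups compared and 890 without the 4 libraries. In CBL0137 against panobinostat the 4 became 2 without a filter, 2 with a filter of 5 TPM, 2 with quantile normalization, 2 with the replicate block and 0 with only the groups compared, and the 2935 over all genes became 1249 with the block and 8 with only the groups compared. The interaction gave 20 calls over all genes without a filter and 1 without the 4 libraries. With each library left out in turn, checkpoint and all-gene calls ranged from 2 to 5 and 324 to 1333 after CBL0137, 6 to 9 and 4049 to 7174 after panobinostat, 10 to 10 and 9255 to 10296 after the combination, 9 to 10 and 7136 to 8917 in the combination against CBL0137, 2 to 5 and 362 to 3366 against panobinostat, 0 to 6 and 0 to 4022 between the single drugs, and 0 to 0 and 0 to 44 for the interaction. The causes of these shifts were not tested.

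Signs changed only for changes that had not passed. With quantile normalization the CBL0137 changes of Pvr, Lag3 and Havcr2 were -0.043, -0.014 and -0.056, and Cd86 between the single drugs was 0.024. Interactions with a pseudocount of 0.1 were -0.22 for Cd274, -0.52 for Pdcd1lg2, -0.33 for Cd80, -0.11 for Cd86, -0.051 for Pvr and -0.047 for Havcr2. Those of Cd86, Pvr and Havcr2 were -0.032, -0.040 and -0.020 with TMM factors, and -0.12, -0.10 and -0.090 after rescaling without small structural RNA and histone genes. That of Cd47 was 0.14 with a pseudocount of 5 and 0.41 without the 4 libraries, and with the replicate block that of Cd86 was -0.0047 and that of Cd47 was 0.056. Leaving out each library gave ranges of -0.078 to 0.97 for Pdcd1lg2, -0.092 to 0.61 for Cd80, -0.22 to 0.44 for Cd86, -0.22 to 0.36 for Cd47, -0.16 to 0.23 for Pvr and -0.17 to 0.34 for Havcr2. Without the 3 libraries with muscle transcripts the interactions of Cd274, Pdcd1lg2 and Cd86 were -0.35, -0.26 and -0.17. The labels do not say whether equal replicate numbers pair the tumours. The deviations of 15 same-numbered pairs from their group means correlated at -0.26 to 0.19, with a median of -0.08, against 0.04 for 30 other pairs. Deviations cancel out within a group, so these correlations depend on one another and cannot exclude a batch shared by number. With the block Cd274 after panobinostat (adjusted p = 0.0587), Cd47 after CBL0137 (0.0543) and in the combination against panobinostat (0.0765), and Cd80 (0.0938) and Pvr (0.0837) between the single drugs did not pass. The depth behind the TPM is unknown, so no limit on low levels could be set.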
